A study of Mus musculus with 6 samples.

Results

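The cytosolic ribosomal proteins are the protein subunits of the ribosomes that translate nuclear-encoded mRNA. They were taken here as every feature with a listed length whose symbol is Rpl or Rps followed by a number and at most a short suffix. The rule gave 79 of 35485 features (21888 have a listed length), 48 with a large subunit (Rpl) name and 31 with a small subunit (Rps) name. It leaves out subunits with other symbols, such as Rplp0, Rpsa and Fau, which are described separately. All 79 were present in the 6 libraries, 78 of them had reads, and Rpl10l had no read in any library.

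The study asked what chronic heart failure (CHF) after myocardial infarction changes in the brain and in the failing heart of male C57BL/6N mice (C57BL/6 in the labels), which were bought as young adults. In the CHF groups a coronary artery was ligated, and in the sham groups the operation was done without infarction. The left ventricle and 2 brain regions, hippocampus and prefrontal cortex, were taken 8 weeks after the operation, and total RNA was sequenced after removal of ribosomal RNA. For each tissue, RNA of 3 CHF mice was pooled into 1 library and RNA of 6 sham mice into another, so that the ratios of CHF to sham have no replicate check and no p-value. No gene was engineered in these mice, and how far the mice of a pool differ among themselves is not visible.

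Most ribosomal proteins occur in a single copy per ribosome, and many of their mRNAs begin with a run of pyrimidines, the terminal oligopyrimidine (TOP) motif, through which growth signals by way of mTOR control their translation. Their genes are short and very active, and the mouse genome holds many processed copies of them, intronless sequences made from their mRNAs. A short read from an exon can therefore fit the gene and its copies equally well. A few subunits also have a second gene with its own promoter, a paralogue, of which Rpl3l is known as the form of striated muscle and takes the place of Rpl3 there.

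Pyrimidine runs near the start of transcription are a feature many of these genes share that the choice by symbol did not use. Of the 79 genes, 59 matched by symbol to the RefSeq promoter table (GRCm38.p6, 250 bases before to 50 bases after each listed start). On the sense strand within 50 bases of a start, 42 of 59 (71.2%) held at least 10 pyrimidines (C or T) in a row, against 20.6% of the 27025 genes in the table. The letters CTTTCC, which such runs can contain, were found in the same window of 19 of 59 (32.2%), against 5.43% of all genes. The letters CCGGAAG, searched on both strands of the whole 300 bases, were found in 23 of 59 (39.0%), against 9.93% of all genes. The TATAAA letters were found in the 60 bases before the start of 1 of the 59 (1.69%), against 3.44% of all genes. A match of letters is a description of the sequence and not evidence of binding.

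The windows below run from 70 bases before to 30 bases after the first listed start of 5 genes to which the results return. Capitals mark runs of at least 8 pyrimidines. Rpl3l is shown since it alone was called lower in CHF hearts, Rpl39 and Rpl26 since they were higher there, and Rps27l and Rpl4 since both were higher in heart than in brain on nearly unique reads (Rpl4 was chosen after its values were seen).
Rpl3l (chr17:24727756-24727855, plus strand): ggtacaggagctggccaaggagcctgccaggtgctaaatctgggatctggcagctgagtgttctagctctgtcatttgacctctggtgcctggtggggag
Rpl39 (chrX:37085193-37085292, minus strand): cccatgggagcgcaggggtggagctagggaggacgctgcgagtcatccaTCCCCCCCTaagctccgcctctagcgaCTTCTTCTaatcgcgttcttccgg
Rpl26 (chr11:68901496-68901595, plus strand): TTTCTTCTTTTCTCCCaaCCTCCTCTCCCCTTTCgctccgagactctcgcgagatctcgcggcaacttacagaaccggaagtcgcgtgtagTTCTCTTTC
Rps27l (chr9:66946016-66946115, plus strand): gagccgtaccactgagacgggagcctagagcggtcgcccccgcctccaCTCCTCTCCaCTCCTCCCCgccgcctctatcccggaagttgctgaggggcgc
Rpl4 (chr9:64173317-64173416, plus strand): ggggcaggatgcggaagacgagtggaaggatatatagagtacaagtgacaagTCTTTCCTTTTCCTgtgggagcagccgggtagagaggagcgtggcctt
The Rpl3l window held no such run, whereas each of the other windows held 1 to 3. Rpl3l also had none of the 4 features above at either of its 2 listed starts.

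How much of a gene's signal is its own differed widely within the family. Each file gives unique gene reads, which fit 1 place in the genome, and total gene reads, which add reads that also fit elsewhere. Summed over the 6 libraries, the unique share of total gene reads had a median of 34.8% over the 78 genes with reads, against 99.7% over the 8363 genes measured in all tissues. It was under 20% in 18 genes, under 50% in 47 and at least 80% in 14. The lowest shares were those of Rps23 (2.89%), Rps6 (5.75%), the subunit that S6 kinase phosphorylates, and Rpl13 (8.00%). Among the highest were those of Rpl8 (100%) and Rpl3l (99.86%). The tables also list 242 features named as copies (-ps) of 55 of these genes. RPKM counts the shared reads, so that for a gene such as Rps6 it describes the gene and its copies together. Unique counts leave out the shared reads but are small for such genes. Since the listed length is the genomic span, unique reads can also come from introns, and how many do was not counted.

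The unique share also depended on the tissue. Among the 74 genes with at least 50 total reads in each library, both left ventricle libraries had a lower share than all 4 brain libraries in 42 (56.8%), against 12.5% of all 10205 features treated the same way. The reverse held in 1 (1.35%), against 11.6% of all features. The median share of all features was 99.7% in heart and in brain, against 30.5% in heart and 33.1% in brain for the family. Shares near 100% have little room to differ, so this background is not fully alike. Rpl21, a large subunit protein, was at 8.43% in CHF and 11.6% in sham left ventricle, against 59.2% and 59.0% in CHF and sham hippocampus and 60.2% in both prefrontal cortex libraries. Rps15a, a small subunit protein, was at 48.3% in CHF and 51.7% in sham left ventricle, against 76.6 to 80.3% in the brain libraries. Rpl28 was at 6.28% in CHF and 8.27% in sham left ventricle, against 25.2 to 28.8% in the brain libraries. For these 3 genes the heart and brain values do not come near each other, whereas the values of CHF and sham pools of 1 tissue lie close together.

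**Figure D1:**
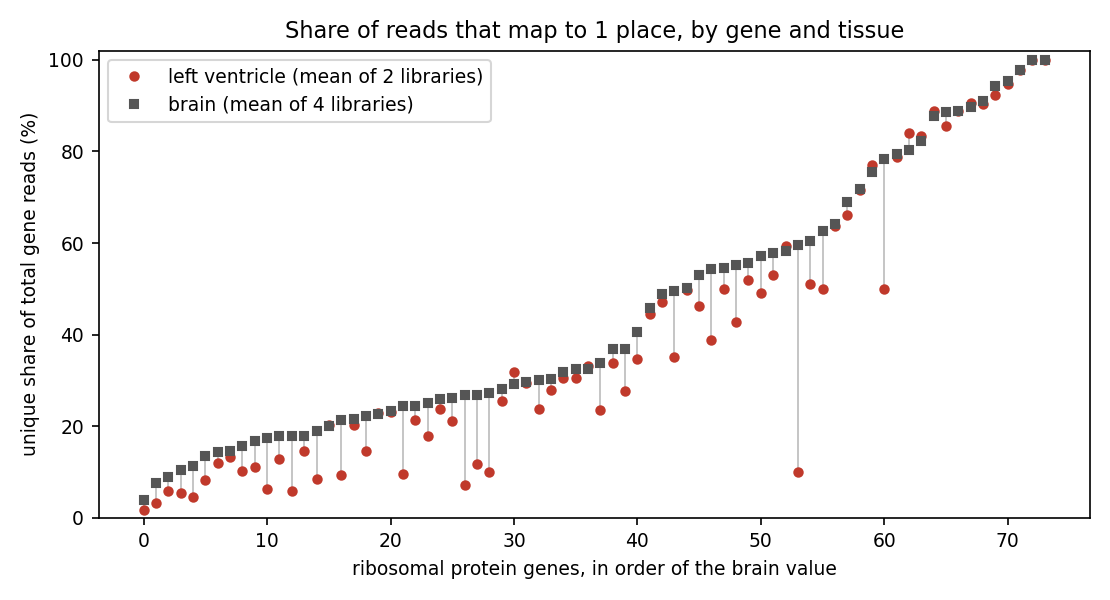
Unique share of total gene reads (percent, y axis) of the 74 ribosomal protein genes with at least 50 total reads in each library, in order of the brain value (x axis). Circles are the mean of the 2 left ventricle libraries and squares the mean of the 4 brain libraries, and grey lines join the values of a gene. The longest line is that of Rpl21, at 8.43 and 11.6% in the left ventricle libraries and 59.7% on average in the brain.

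The libraries held 15.7 to 25.9 M unique and 17.2 to 28.2 M total gene reads. The 10 features with most unique reads took 17.6% of them in the CHF and 28.0% in the sham left ventricle, against 4.12 to 4.95% in the brain. The labelled tissues carried their markers. The 8 heart muscle markers summed to 3204 RPKM in CHF and 4365 RPKM in sham left ventricle and to at most 1.48 RPKM in a brain library, and Pln had no unique read in either left ventricle library, at 5.30 RPKM in CHF and 12.9 RPKM in sham. The 7 neuron markers in the files summed to 323 to 345 RPKM in the brain libraries and to 1.81 and 1.42 RPKM in CHF and sham left ventricle.

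In the left ventricle, CHF against sham, nearly all measured genes of the family were higher in CHF. A gene was taken as measured where the CHF and the sham library each held 100 or more unique reads of it, and called with a log2 ratio of RPKM of at least 0.9 in either direction, the threshold of the study. Of 44 measured ribosomal protein genes, 12 (27.3%) were called higher, against 10.5% of the 9771 measured genes, and 1 (2.27%) was called lower, against 1.54%. The ratio was above 0 in 43 of 44, against 71.2% of all genes. The median log2 ratio was 0.76, with quartiles of 0.61 and 0.94, against a median of 0.22 for all genes. The counting interval of the unique reads, which covers counting error only (95%, Clopper-Pearson), lay above 0 for 42 genes (all genes 56.3%) and below 0 for 2 (all genes 17.5%), Rpl3l and Rps2. The 24 large subunit genes had a median of 0.71 with 5 called higher, and the 20 small subunit genes a median of 0.80 with 7 called higher.

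Under other scalings fewer genes passed the threshold. TMM scaling moved the median of all genes by -0.29 on the log2 scale, and 3 of the 12 then remained called higher (Rpl39, Rps19 and Rpl3), where 6.35% of all genes were called higher. Rpl3l was called lower, where 4.13% of all genes were. TMM was applied to unique reads. Unique reads per library total, without TMM, kept 8 of the 12, where 10.8% of all genes were called higher. The family median was 0.48 above that of all genes on unique reads. Scaling a whole library shifts every gene alike, so TMM could not change this difference. With RPKM, which counts shared reads, the family median was 0.54 above that of all genes.

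As a share of the library, the 79 genes took 0.635% of total gene reads in CHF and 0.389% in sham left ventricle, 1.63-fold more in CHF. By unique reads alone they took 0.316% in CHF and 0.211% in sham (log2 ratio 0.59, counting interval 0.57 to 0.60). Both counts therefore gave the same direction, and leaving out Rpl3l brought the ratio of unique reads to 1.64. The genes were also divided by their own unique share. The median log2 ratio of RPKM was 0.68 over the 12 measured genes with at least 80% unique reads and 0.70 over the 12 from 50 to under 80%. It was 0.83 over the 16 from 20 to under 50% and 0.86 over the 4 under 20%. On unique reads the medians were 0.71, 0.66, 0.77 and 0.75 in the same order, without a steady rise.

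**Figure D2:**
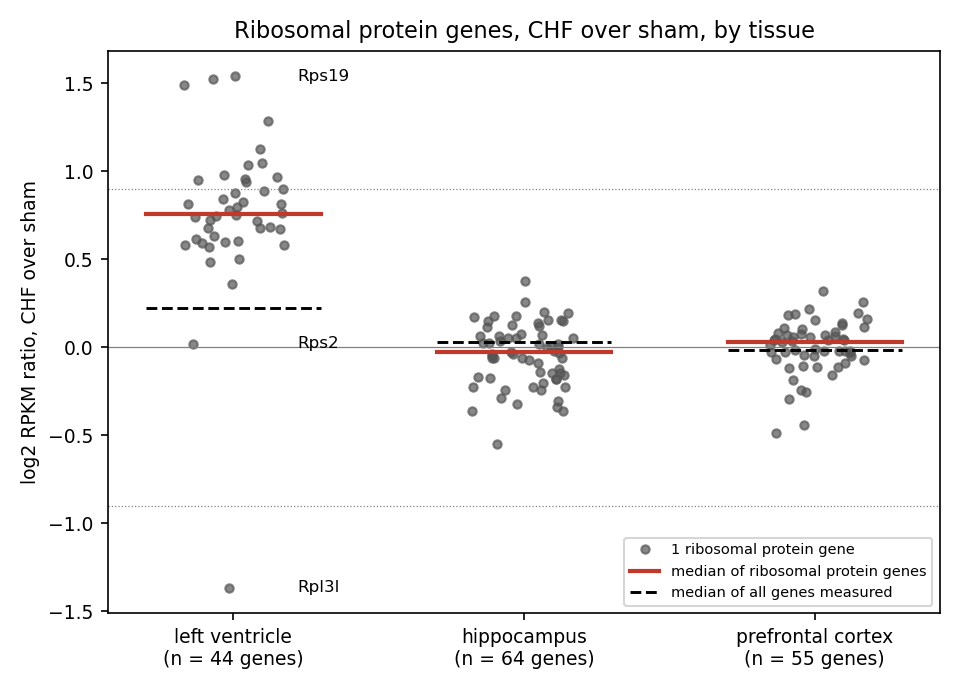
Log2 ratio of RPKM, CHF over sham (y axis), of each measured ribosomal protein gene in the left ventricle (44 genes), the hippocampus (64) and the prefrontal cortex (55). Solid lines are the medians of these genes (0.76, -0.03 and 0.03), dashed lines the medians of all measured genes (0.22, 0.03 and -0.01) and dotted lines the threshold of 0.9 in each direction. The left ventricle points lie above 0 except for Rpl3l, and the points of both brain regions lie on either side of 0.

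Rps19, a small subunit protein whose human gene is mutated in Diamond-Blackfan anaemia, had the highest ratio of the 44 measured genes. It was at 23.7 RPKM in CHF and 8.16 RPKM in sham left ventricle, with 663 unique reads in CHF and 162 in sham (log2 ratio of RPKM 1.54, interval of unique reads 1.44 to 1.95). Rpl39, a very small protein at the exit of the nascent chain, was at 23.7 RPKM in CHF and 8.23 RPKM in sham, with 478 unique reads in CHF and 111 in sham (1.53, 1.46 to 2.08). Rpl3, a core protein near the peptidyl transferase centre, was at 11.1 RPKM in CHF and 3.94 RPKM in sham, with 398 unique reads in CHF and 115 in sham (1.49, 1.15 to 1.76). These 3 ratios were the highest of the 44 measured genes and correspond to folds of 2.91, 2.88 and 2.81.

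Rpl26, which lies near the exit tunnel, was at 32.1 RPKM in CHF and 13.2 RPKM in sham (1.28), but its unique reads, 391 in CHF and 187 in sham, gave only 0.72 (0.47 to 0.98). It had the widest gap between both measures of the 44 genes, 0.56. Rpl30 was at 18.7 RPKM in CHF and 8.58 RPKM in sham (1.13, 0.80 to 1.37). Rps21 was at 42.9 RPKM in CHF and 20.8 RPKM in sham (1.05, 0.91 to 1.28). Rps21 had most of its reads in 1 place, 907 of 1013 in CHF.

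A further 5 called genes were just past the threshold. Rpl27a was at 34.1 RPKM in CHF and 17.3 RPKM in sham (0.98), and Rps26, at the mRNA exit channel, at 30.04 RPKM in CHF and 15.3 RPKM in sham (0.97). Rps24 was at 11.2 RPKM in CHF and 5.75 RPKM in sham (0.96), Rps16 at 64.3 RPKM in CHF and 33.2 RPKM in sham (0.95) and Rps20 at 64.0 RPKM in CHF and 33.4 RPKM in sham (0.94). Their folds were 1.92 to 1.97. Just under the threshold were Rps18 (34.4 RPKM in CHF and 18.5 RPKM in sham, 0.899) and Rpl37 (6.81 RPKM in CHF and 3.67 RPKM in sham, 0.89).

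**Figure D3:**
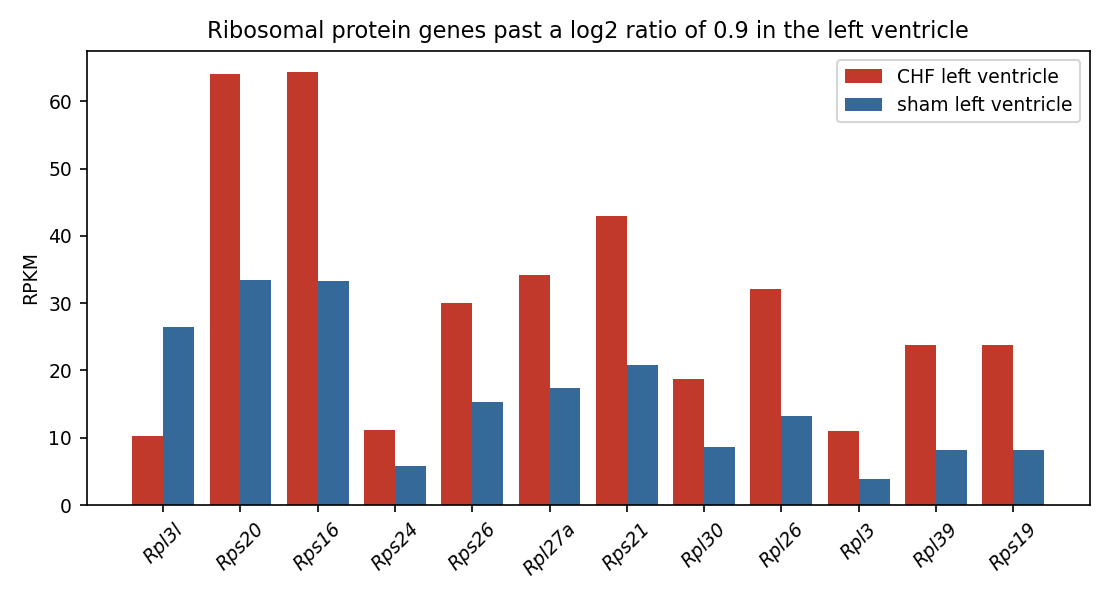
RPKM (y axis) in the CHF and sham left ventricle libraries of 12 of the 13 ribosomal protein genes past a log2 ratio of 0.9, in order of the ratio (x axis). Each bar is 1 pooled library. Rpl3l is the only gene shown with the lower bar in CHF, at 10.3 against 26.4 RPKM.

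At the lower end stood Rpl3l and, above it, Rps2, Rpl7l1 and Rpl7a. Rps2, near the mRNA entry channel, was at 86.6 RPKM in CHF and 85.4 RPKM in sham left ventricle (0.02), and its unique reads gave -0.14 (-0.24 to -0.04). With TMM scaling its log2 ratio was -0.45. It was the member with the highest RPKM of sham left ventricle. Rpl7l1, the Rpl7 paralogue, was at 4.92 RPKM in CHF and 3.82 RPKM in sham (0.36, 0.20 to 0.52). Rpl7a was at 20.8 RPKM in CHF and 14.8 RPKM in sham (0.49, 0.34 to 0.73).

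A further 34 genes had reads in both left ventricle libraries without reaching 100 unique reads in each. With a minimum of 1 unique read, 26 of 77 genes of the family were past 0.9, against 22.3% of all 15132 genes. Low-read genes outside the family were not counted apart. The 34 had log2 ratios of RPKM above 0 in 30 and past 0.9 in 15, with 0 past -0.9, and a median of 0.79. Among them was Rpl10, which joins the large subunit late and whose human gene is mutated in some leukaemias, at 36.3 RPKM in CHF and 16.3 RPKM in sham with 197 unique reads in CHF and 87 in sham (1.15, 0.47 to 1.22). Rps6 was at 50.9 RPKM in CHF and 30.3 RPKM in sham (0.75), with 108 unique of 3686 total reads in CHF and 57 of 1706 in sham. Rps23, with the lowest unique share, was at 50.9 RPKM in CHF and 25.2 RPKM in sham (1.01), but had 19 unique reads in CHF and 18 in sham (-0.26, -1.27 to 0.75). For Rps23 the depth of unique reads could not show a difference in either direction.

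Rpl5 and Rpl11 bind 5S ribosomal RNA and the p53 regulator Mdm2. Rpl5 was at 4.93 RPKM in CHF and 3.27 RPKM in sham left ventricle (0.59, 0.19 to 0.90). Rpl11, at 3.30 RPKM in CHF and 2.22 RPKM in sham, was not measured, with 42 unique reads in CHF and 25 in sham (0.57, -0.34 to 1.18). Rpl13a, known for silencing inflammatory mRNAs when released from the ribosome, was at 72.8 RPKM in CHF and 39.7 RPKM in sham (0.88, 0.83 to 1.04). Rps14 was at 40.0 RPKM in CHF and 24.4 RPKM in sham (0.72, 0.67 to 0.86). None of these 4 passed the threshold.

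Rpl3l and its parent Rpl3 went in opposite directions in CHF hearts. Rpl3l (chromosome 17, 24727829 to 24736149, GRCm38.p1) had 1888 unique reads and 10.3 RPKM in CHF, against 3788 unique reads and 26.4 RPKM in sham left ventricle. Its log2 ratio was -1.36 (unique reads -1.35, interval -1.43 to -1.27), 2.57-fold lower in CHF. Rpl3 (chromosome 15, 80077781 to 80083406) was 2.81-fold higher, as given above. Of the unique reads of the pair, Rpl3l held 82.6% (81.0 to 84.1%, Clopper-Pearson) in CHF and 97.1% (96.5 to 97.6%) in sham. Of the summed RPKM of the pair, which is per kilobase of listed span, it held 48.2% in CHF and 87.0% in sham. The direction of both genes was the same under every scaling tried, and with TMM the log2 ratios were -1.65 for Rpl3l and 1.14 for Rpl3.

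In the brain Rpl3l was near absence, with 13 and 14 unique reads in CHF and sham hippocampus and 13 and 16 in CHF and sham prefrontal cortex (0.06 to 0.08 RPKM). Rpl3 was at 10.8 and 11.3 RPKM in CHF and sham hippocampus and at 11.9 and 10.97 RPKM in CHF and sham prefrontal cortex. The CHF left ventricle, with 11.1 RPKM of Rpl3, lay within 1 RPKM of each brain library, and the sham left ventricle lay below all of them.

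**Figure D4:**
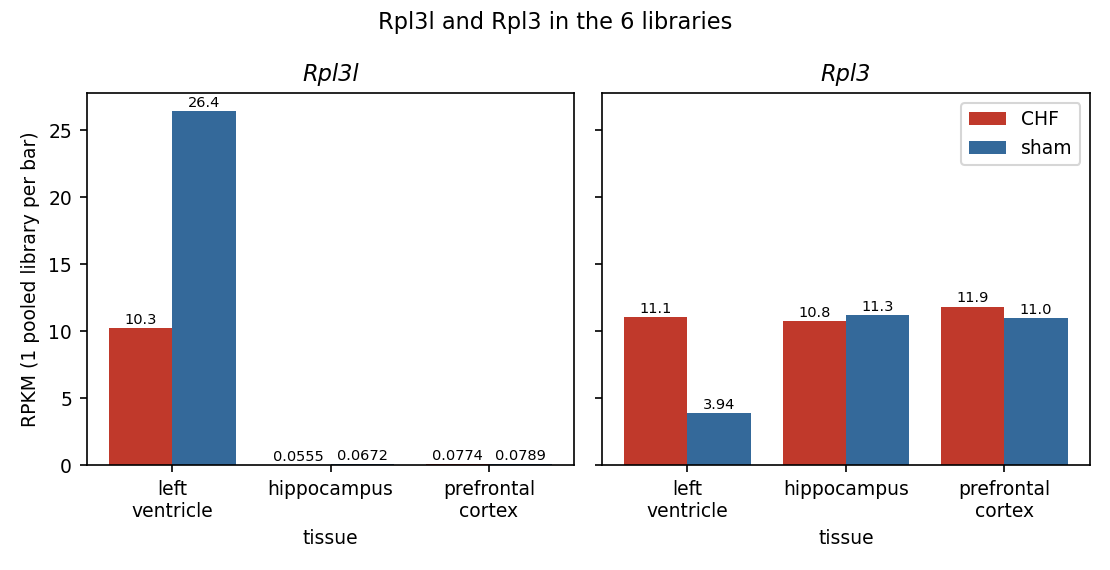
RPKM (y axis) of Rpl3l (left panel) and Rpl3 (right panel) in the CHF and sham libraries of the left ventricle, the hippocampus and the prefrontal cortex (x axis). Each bar is 1 pooled library with its value above it. In the left ventricle Rpl3l is lower and Rpl3 higher in CHF, and in the brain Rpl3l is at 0.0789 RPKM or less.

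In the other pairs with reads, paralogue and parent were both above 0 in RPKM in CHF against sham left ventricle. Rpl22l1 was at 12.6 RPKM in CHF and 5.45 RPKM in sham left ventricle, with 142 unique reads in CHF and 34 in sham (1.21, interval 1.17 to 2.31), and its parent Rpl22 at 16.4 RPKM in CHF and 10.6 RPKM in sham (0.63, 0.58 to 0.77). Both were higher in CHF, and of the unique reads of the pair Rpl22l1 held 4.87% in CHF (4.12 to 5.72%) and 2.42% in sham (1.68 to 3.36%). Rps27l, a p53 target in human cells, was at 5.34 RPKM in CHF and 3.57 RPKM in sham (0.58, 0.37 to 0.87), and Rps27 at 11.2 RPKM in CHF and 3.31 RPKM in sham on only 18 unique reads in CHF and 9 in sham. Of the Rpl7 pair, Rpl7l1 held 37.3% of unique reads in CHF (35.3 to 39.3%) and 44.1% in sham (41.2 to 47.0%). Rpl39l had 8 unique reads in CHF and 0 in sham left ventricle, and at most 1 in a brain library, where 3 reads correspond to 0.12 to 0.16 CPM. Rpl10l, known from the testis, had 0 reads in all 6 libraries.

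Related genes outside the family were compared by the same rule in the left ventricle. Of all measured genes there, 10.5% were called higher, 1.54% were called lower and 71.2% were above 0. Of 8 ribosomal proteins with other names in the files, 5 were measured, all were above 0 and 0 were called, with a median of 0.62. Rplp0, a stalk protein often used as a reference gene, was at 123 RPKM in CHF and 91.9 RPKM in sham (0.42), and Rplp1, also of the stalk, at 175 RPKM in CHF and 96.5 RPKM in sham (0.86). Gnb2l1, the scaffold Rack1, was at 49.5 RPKM in CHF and 29.9 RPKM in sham (0.73), and Rplp2 at 12.1 RPKM in CHF and 7.84 RPKM in sham (0.62). The 3 not measured, Rpl36al, Rpsa and Fau, had log2 ratios of 1.01, 0.56 and 0.20.

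Among 9 measured elongation factors and cofactors, 1 was called higher and 0 lower, with a median of 0.32. Of all genes, 10.5% were called higher and 1.54% lower. The called gene was Eef1a1, the general form of the factor that delivers aminoacyl-tRNA, at 496 RPKM in CHF and 150 RPKM in sham (1.73, 1.67 to 1.80). Eef1a2, its form in muscle and neurons, was at 115 RPKM in CHF and 142 RPKM in sham (-0.30, interval of unique reads -0.31 to -0.26). This pair thus differed in direction as the pair of Rpl3 and Rpl3l did, with only the general form past the threshold. Of 34 initiation factors, 2 were called higher and 0 lower (median 0.25), where 10.5% of all genes were called higher. Pabpc1, the poly(A)-binding protein, was at 9.60 RPKM in CHF and 4.09 RPKM in sham (1.23). Eif6, which keeps the subunits apart, was at 5.18 RPKM in CHF and 2.70 RPKM in sham (0.94).

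Of 46 measured ribosome biogenesis factors, 0 were called, where 10.5% of all genes were called higher and 1.54% lower. Above 0 were 42 of the 46, against 71.2% of all genes. Their median was 0.37, between that of the ribosomal proteins (0.76) and that of all genes (0.22). The largest ratios were those of the kinase Riok1 (0.57 RPKM in CHF and 0.31 RPKM in sham, 0.87) and of Nop16 (2.41 RPKM in CHF and 1.36 RPKM in sham, 0.83). Of 14 genes of the S6 kinase and mTORC1 branch and of TOP mRNA regulation, 1 was called higher (all genes 10.5%) and the median was 0.17. That gene was Mtor, at 2.60 RPKM in CHF and 0.77 RPKM in sham (1.76), but its unique reads gave no such difference (interval -0.14 to 0.06).

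Markers of other cell types also differed between both left ventricle libraries. For comparison, 10.5% of all measured genes were called higher, 1.54% were called lower and 71.2% were above 0. All 10 fibroblast and matrix markers were called higher in CHF, with a median log2 ratio of 3.28 and a summed level of 280 RPKM in CHF and 31.9 RPKM in sham. Of 8 measured macrophage markers, 7 were called higher (median 1.80, summed 147 RPKM in CHF and 39.1 RPKM in sham). Of 7 measured heart muscle markers, 1 was called lower and 6 were below 0 (median -0.52). Of 3 measured skeletal muscle markers 2 were called higher, of 7 endothelial markers 1, and of 4 red blood cell markers none. Their part in the family's ratios was not tested, and in bulk tissue fewer cells of a type and less RNA per cell cannot be told apart.

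No gene of the family was called in the brain. In the hippocampus, 64 genes were measured and 0 were called, where 0.0541% of 11086 genes were called higher and 0.135% lower, 0.189% in all. Their median log2 ratio was -0.03, against 0.03 for all genes, and 29 were above 0 and 35 below. Rpl7 was lowest, at 6.89 RPKM in CHF and 10.1 RPKM in sham (-0.55, interval -0.88 to -0.34), and Rpl11 highest, at 6.26 RPKM in CHF and 4.82 RPKM in sham (0.38, 0.03 to 0.78). The next at the lower end were Rps4x (9.15 RPKM in CHF and 11.8 RPKM in sham, -0.36), Rps19 (8.22 RPKM in CHF and 10.6 RPKM in sham, -0.36) and Rps6 (18.8 RPKM in CHF and 23.7 RPKM in sham, -0.34). As a share of unique reads, the family held 0.203% in CHF and 0.211% in sham hippocampus.

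In the prefrontal cortex, 55 genes were measured and 0 were called, where 0.0093% of 10747 genes were called higher and 0.0465% lower, 0.0558% in all. The median was 0.03, against -0.01 for all genes. Rps10 was lowest, at 3.75 RPKM in CHF and 5.26 RPKM in sham (-0.49, interval -0.83 to -0.17), next to Rps2 at 56.6 RPKM in CHF and 76.9 RPKM in sham (-0.44, -0.56 to -0.36). Rpl34 was highest, at 14.3 RPKM in CHF and 11.4 RPKM in sham (0.32, 0.03 to 0.39). The family held 0.197% of unique reads in CHF and 0.200% in sham prefrontal cortex.

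The 12 genes called higher in the left ventricle were all measured in both brain regions. Their log2 ratios there lay between -0.36 (Rps19) and 0.20 (Rpl39) in the hippocampus and between -0.18 (Rps20) and 0.26 (Rps19) in the prefrontal cortex. Of the 41 genes measured in all 3 tissues, 40 had a higher ratio in the left ventricle than in either brain region, and Rps2 was the exception. Rpl3l was not among the 41, since it was not measured in the brain. The same count was not made for all genes. Their median was also higher in the left ventricle (0.22) than in hippocampus (0.03) and prefrontal cortex (-0.01). The difference between tissues was not tested, since each ratio rests on 1 pool per condition. Of the other genes of the family, 14 were measured in 2 tissues, 12 in 1 and 12 in none.

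Levels between tissues were compared across all 6 libraries, with condition as a term. The test was edgeR's quasi-likelihood test on unique gene reads with Benjamini-Hochberg adjustment over 15091 genes. Its p-values measure only the spread between the CHF and the sham pool of a tissue beyond the condition term, and not that between mice. In RPKM, the median gene of the family was at 18.7 in CHF and 10.6 in sham left ventricle, against 12.6 in both hippocampus libraries and 10.9 and 10.6 in CHF and sham prefrontal cortex. Rpl41, Rpl8 and Rps15 were the 3 highest in every library except sham left ventricle, where Rps2 led at 85.4 RPKM. Rpl8 was highest of CHF left ventricle, at 103 RPKM, and Rpl41 was highest of each brain library, at 78.7 and 87.7 RPKM in CHF and sham hippocampus and 93.3 and 81.6 RPKM in CHF and sham prefrontal cortex.

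Of 77 genes tested, 18 were called higher in the left ventricle and 18 lower, each against the brain, where 37.9% of all genes were called higher and 39.2% lower. Without CHF hippocampus 19 genes of the family were called in all (all genes 63.8%), without CHF prefrontal cortex 18 (all genes 61.7%) and without sham prefrontal cortex 20 (all genes 62.7%), instead of 36 (all genes 77.1%). The largest difference was that of Rpl3l, 8.12 ± 0.35 on the log2 scale (SE), adjusted p = 8.4e-05 by edgeR. Rpl7, a large subunit protein near 5S ribosomal RNA, was at 59.9 and 37.5 RPKM in CHF and sham left ventricle, against 6.89 to 10.1 RPKM in the brain libraries (2.64 ± 0.26, edgeR adjusted p = 0.00074). Rps27l was at 5.34 and 3.57 RPKM in CHF and sham left ventricle, against 1.08 to 1.39 RPKM in the brain (2.02 ± 0.16, edgeR adjusted p = 0.00034). Rps4x, X-linked, was at 46.0 and 26.2 RPKM in CHF and sham left ventricle, against 9.15 to 11.8 RPKM in the brain (1.81 ± 0.19, edgeR adjusted p = 0.00088). Rps3a was at 76.0 and 44.3 RPKM in CHF and sham left ventricle, against 14.9 to 18.6 RPKM in the brain (1.77 ± 0.17, edgeR adjusted p = 0.00066). Rpl4, next in order, was at 62.7 and 37.5 RPKM in CHF and sham left ventricle, against 12.9 to 18.2 RPKM in the brain (1.76 ± 0.19, edgeR adjusted p = 0.00093). For each of these the heart and brain libraries did not overlap, and each was also called higher on total reads.

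The lower calls depended more on which reads were counted. Rps15a had 628 and 317 unique reads in CHF and sham left ventricle, against 1426 to 2160 in the brain libraries (-1.46 ± 0.12, edgeR adjusted p = 0.00044), and on total reads its log2 difference was -0.84 (edgeR adjusted p = 0.0032). Rpl28 had 48 and 42 unique reads in CHF and sham left ventricle, against 199 to 266 in the brain (-1.96 ± 0.20, edgeR adjusted p = 0.00081), but -0.11 on total reads (edgeR adjusted p = 0.42). Rpl23a (-1.73 ± 0.27, edgeR adjusted p = 0.0035) and Rpl36a (-1.42 ± 0.34, edgeR adjusted p = 0.015) were at -0.34 and -0.06 on total reads and no longer called. Rpl21 was lowest on unique reads (-1.98 ± 0.21, edgeR adjusted p = 0.00089) and was called higher on total reads (0.59, edgeR adjusted p = 0.041). Its unique reads were 53 and 30 in CHF and sham left ventricle, against 147 to 318 in the brain, while its total reads were 629 and 259 in CHF and sham left ventricle, against 244 to 537 in the brain.

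On total reads, 29 genes of the family were called higher in the left ventricle and 8 lower, where 37.4% of all genes were called higher and 39.0% lower. Of the 36 called on unique reads, 25 were called in the same direction on total reads, 17 higher and 8 lower, and 5 had the other sign, among them Rpl21, Rpl35, Rpl36 and Rps27. The median log2 difference of the family was -0.08 on unique and 0.32 on total reads. The 5 genes were picked by opposite signs on unique and total reads, which largely fixes a lower unique share in the heart. In each of them the share of both heart libraries was below that of all 4 brain libraries, as in 42 of 74 genes of the family. In the CHF libraries alone the median log2 ratio of RPKM, left ventricle over the mean of both brain regions, was 0.55 with 64 of 78 genes above 0, and in the sham libraries alone it was -0.23 with 29 of 78 above 0.

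**Figure D5:**
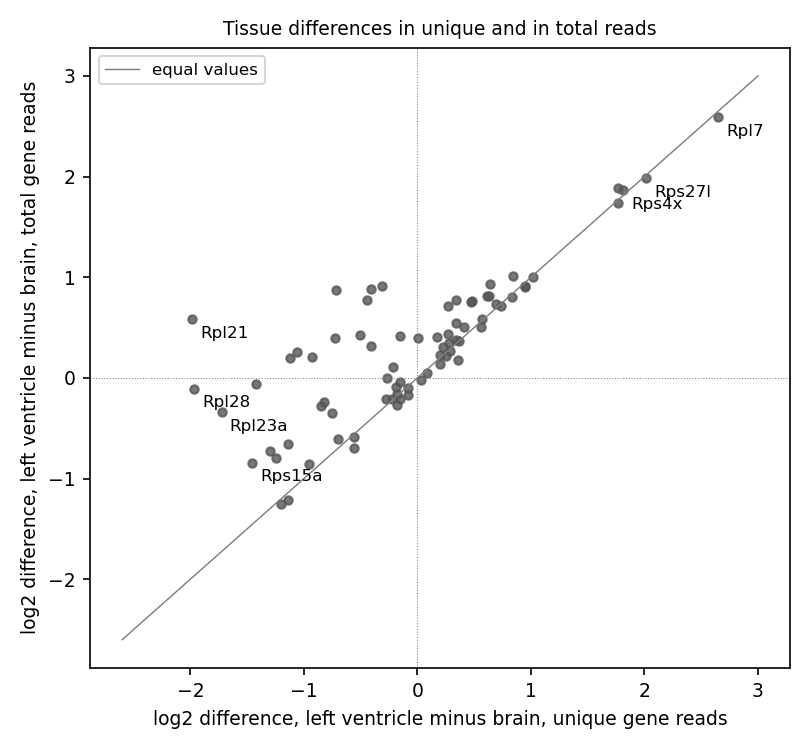
Log2 difference, left ventricle minus brain, of 76 ribosomal protein genes in unique gene reads (x axis) and in total gene reads (y axis), from the same edgeR model. Each point is 1 gene, the diagonal marks equal values and Rpl3l, at 8.12 and 8.09, is beyond the axes. Rpl7, Rps27l and Rps4x lie close to the diagonal, and Rpl21, Rpl28 and Rpl23a lie far above it.

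Between the hippocampus and the prefrontal cortex, 0 of 77 genes were called by edgeR, where 0.464% of all genes were called higher and 0.345% lower, 0.808% in all. At an unadjusted p under 0.05, 2 differed (Rps26 and Rpl10a), and DESeq2 called 0 as well. Rpl10a was at 15.7 and 13.1 RPKM in CHF and sham hippocampus, against 11.2 and 9.89 RPKM in CHF and sham prefrontal cortex (0.60 ± 0.22, edgeR adjusted p = 0.33). Rps26 was at 22.4 and 20.5 RPKM in CHF and sham hippocampus, against 15.4 and 15.6 RPKM in CHF and sham prefrontal cortex (0.51 ± 0.19, edgeR adjusted p = 0.33). Without the CHF left ventricle library, 14 genes of the family were called, 12 of them higher in the hippocampus, where 32.2% of all genes were called and 15.3% were higher. Without the sham left ventricle library the counts were also 14 and 12, where 32.1% of all genes were called and 15.4% were higher. Both Rpl10a and Rps26 had hippocampus values above those of the prefrontal cortex in each condition.

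Features that lie inside or across these genes could add reads to them. Introns of 21 of them hold 31 features named as snoRNAs, which had 27 total reads in all 6 libraries together. In the left ventricle the 13 measured hosts of a snoRNA had a median log2 ratio of 0.80 and the 31 other measured genes one of 0.72. The spans of 6 (Rpl5, Rpl31, Rpl32, Rpl35, Rps25 and Rps27a) overlap another gene, and whether the counting used strand is not stated, so that reads of these 6 may be shared with the neighbour.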

How the data were processed

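Libraries were made by the authors with a stranded total RNA kit after ribosomal RNA removal, read as 50-base single reads and mapped to GRCm38.p1 in CLC Genomics Workbench, whose release is not stated in the sources used here. The deposited counts are unique and total gene reads per feature, and the deposited RPKM values scale reads, shared ones included, by listed length and by the library total. Recomputing RPKM gave the deposited values within 1e-06 for all 21888 features with a length. That length was the genomic span for all 79 genes, so that intronic reads are included. Tables of the authors' own comparisons were not used. Some genes are counted but not reported here by name.

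A gene was measured with at least 100 unique gene reads and RPKM above 0 in both libraries of a tissue. It was called at a log2 ratio of 0.9 in either direction. Intervals (95%, Clopper-Pearson) come from unique reads and library totals and cover counting error only. A library held 15.7 to 25.9 M unique gene reads. Tissue contrasts used edgeR 4.0.16 (TMM, filterByExpr, glmQLFit and glmQLFTest) in R 4.3.3 on all 6 libraries with tissue and condition as terms. DESeq2 1.42.0 was an alternative. The rest was computed with Python 3.11.15. Both kinds of call were tested on simulated data.

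Genes named in the text were drawn mainly from those called, the 4 highest and 4 lowest ratios per tissue and paralogues with their parents. Further sources were the largest tissue differences, the highest levels, the extreme unique shares and 7 genes of known extra roles. From each further list they were drawn from the called genes or those with the largest ratios. Not every gene of these groups is named. Members, lists and rules were chosen with earlier results of these data known. The alternatives were other scalings, read minimums, thresholds, a pseudocount of 0.01 RPKM, trends in abundance, length or GC taken out, other count models, and each library left out of the tissue contrasts.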

Additional observations from a re-analysis of the deposited data

Results flagged for a closer look

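Rps16, Rps20 and Rpl27a, called higher in the CHF left ventricle, had a ratio below 0 in a brain region with a counting interval of unique reads also below 0. Rps16 was at 0.95 on the log2 scale in the left ventricle, against -0.17 in hippocampus and -0.11 in prefrontal cortex. Rps20 was at 0.94 in the left ventricle, against 0.18 in the hippocampus (interval 0.06 to 0.40, above 0) and -0.18 in the prefrontal cortex (-0.37 to -0.02). Rpl27a was at 0.98 in the left ventricle, against -0.00081 in the hippocampus (-0.44 to -0.02) and 0.22 in the prefrontal cortex (0.11 to 0.54, above 0). With 1 library per group the difference between tissues was not tested for any of these genes.

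The 242 features named as copies of ribosomal protein genes, which no comparison used, held 0.268% of total gene reads in the CHF and 0.151% in the sham left ventricle, 1.78-fold more in CHF. Their unique reads, 6614 in CHF and 2958 in sham, gave 1.77-fold (log2 0.82, counting interval 0.76 to 0.88).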

How the results depend on the processing

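In the left ventricle, CHF against sham, the count of 13 called genes (12 higher) moved with the scaling. TMM, DESeq2 size factors and totals without the 10 most read features were applied to unique reads. Each gave 4 of 44 genes (3 higher), with family medians of 0.41, 0.40 and 0.52. Of all genes, 6.35, 6.19 and 7.77% were called higher. A minimum of 1 unique read gave 27 of 77 genes (26 higher, all genes 22.3% higher). A minimum of 200 gave 7 of 33 (6 higher, all genes 8.35% higher). Genes with at least 80% unique reads gave 3 of 11 (2 higher, all genes 10.5% higher). A threshold of 0.8 gave 20 of 44 (19 higher, all genes 13.0% higher). One of 1.0 gave 8 of 44 (7 higher, all genes 8.96% higher). In the brain, 0 genes were called in all 16 alternatives. The family median there moved by less than the median half-width of the intervals of single genes, 0.21 in hippocampus and 0.22 in prefrontal cortex. This width is not an error of the median, whose sign changed in the prefrontal cortex, from 0.03 to -0.02 on unique reads per library total. For the left ventricle against the brain, leaving out 1 library gave 18 to 52 called genes, against 36, the fewest without CHF prefrontal cortex and the most without sham left ventricle. No share of all genes is given here for the largest count, the one without sham left ventricle. Whether that count is particular to the family therefore cannot be told. Total reads turned Rpl21 to 0.59. Of the 36, 12 were called in the same direction in all 11 alternatives, 8 higher and 4 lower. For the hippocampus against the prefrontal cortex, leaving out either left ventricle library gave 14 called genes (12 higher) and leaving out any other gave 0. A left-out library leaves 1 library in its tissue, which is assumed to vary like the others. The causes of these shifts were not tested, and calls kept in every alternative were not counted for all genes. The condition term of the tissue contrasts sets tissues against each other within CHF and within sham. Without it, 38 genes were called for the left ventricle against the brain (20 higher) and 0 for the hippocampus against the prefrontal cortex. The share of all genes without this term is not given here. For CHF against sham, no paired analysis was possible because each tissue has 1 library per condition. Genes with few unique reads, such as Rps23, set the limit of what could be shown.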
